A study of Mus musculus with 18 samples.

Results

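Matricellular, elastic and proteoglycan matrix genes encode the part of the cardiac extracellular matrix that surrounds and links the collagen fibrils. The set held 38 genes chosen by symbol, and a gene was kept where at least 3 libraries held 10 or more counts. It was chosen with earlier results of these data known, so counts of members called are not those of an independently chosen set. All 38 passed that filter, among 15914 genes of the series that did so. Of the 38, 37 were tested among 15778 genes. The exception was Cthrc1, a secreted protein of activated fibroblasts, with 1 to 12 counts per library. The set was split by role into 8 small leucine-rich proteoglycans, 10 genes of elastic fibres and microfibrils, 5 lysyl oxidases, 10 matricellular genes and 5 adhesive and other matrix genes.

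The tissue was the mid wall of the left ventricle of male mice on a 129SVE background, taken at 3, 6 or 10 weeks of age. KO mice lack the muscle LIM protein (MLP, gene Csrp3), a Z-disc protein of striated muscle whose loss is a standard mouse model of dilated cardiomyopathy, and WT mice were the age-matched controls. The labels name no other allele, no treatment and no promoter or Cre. Each of the 6 groups held 3 libraries of total RNA, with 14980968 to 23001047 counts each. Nothing in the labels says that replicates are separate animals, so p-values measure the spread between these libraries. That spread was wider than read counting alone gives, with a chi-squared per degree of freedom of 7.04 to 64.1 between replicates. Whether it lies between animals or between preparations was not tested.

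Small leucine-rich proteoglycans bind collagen and set how fibrils assemble and how thick they grow. Elastic fibres consist of an elastin core on a scaffold of fibrillin microfibrils, and lysyl oxidases cross-link both elastin and collagen. Matricellular proteins are secreted into the matrix, where they act mainly on cells and on growth factors, and in the heart several of them are low in the healthy adult and known for their rise after injury or overload. In the heart most of these genes are made chiefly by fibroblasts and mural cells.

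Before the comparisons, the targeted gene and the libraries were examined. Csrp3 RNA was not lower in the libraries labelled KO: it ran from 951 to 1490 CPM (counts scaled to the size of the library) over the WT libraries and from 1130 to 3420 CPM over the KO libraries, with log2 differences of 0.80, 0.57 and 1.29 at 3, 6 and 10 weeks (adjusted p = 0.0812, 0.185 and 0.0041). The count spans the whole gene and the labels do not say which part was deleted, so it does not check the labels; KO and WT below are what the libraries are labelled. Mitochondrial transcripts took 11.0% to 16.8% of counts in WT and 7.50% to 10.9% in KO. In 1 KO library per age (replicate 3 at 3 and 6 weeks, replicate 1 at 10 weeks) the summed level of 4 atrial transcripts was 247, 801 and 2290 CPM, against 2.23 to 44.0 CPM in the 15 others. All 8 cardiomyocyte markers were detected in every group, with sums of 64100 to 96500 CPM per library.

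The promoters of 6 members are shown because they stand for the patterns described below: Bgn and Fmod, proteoglycans that were higher in KO, Ogn and Aspn, neighbouring proteoglycan genes that were not, and Cilp and Thbs4, which had among the largest differences. The sequences are the 250 bases before the RefSeq gene start on GRCm38.p6, written 5′ to 3′ on the gene's strand; 23 of the 38 members had an entry. The windows are chrX:73483351-73483600 for Bgn, chr1:134037004-134037253 for Fmod, chr9:65264930-65265179 for Cilp, chr13:92794819-92795068 for Thbs4, chr13:49544193-49544442 for Aspn and chr13:49607765-49608014 for Ogn, on the minus strand for Thbs4 and on the plus strand for the others. Capitals mark exact matches, on either strand, to the TATA box (letters TATAAA), the CCAAT box (letters CCAAT) and the GC box (letters GGGCGG). Matches overlap each other in Bgn, for 2 of its 3 GC boxes, and in Ogn, for both of its TATA boxes.
Bgn: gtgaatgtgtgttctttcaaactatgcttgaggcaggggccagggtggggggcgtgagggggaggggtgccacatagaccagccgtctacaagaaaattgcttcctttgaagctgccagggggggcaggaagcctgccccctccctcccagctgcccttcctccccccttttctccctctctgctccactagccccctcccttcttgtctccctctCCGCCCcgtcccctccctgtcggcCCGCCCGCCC
Fmod: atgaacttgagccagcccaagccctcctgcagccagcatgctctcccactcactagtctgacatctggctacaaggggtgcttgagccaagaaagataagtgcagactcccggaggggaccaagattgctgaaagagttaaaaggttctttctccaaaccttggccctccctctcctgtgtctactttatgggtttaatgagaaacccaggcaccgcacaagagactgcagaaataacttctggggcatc
Cilp: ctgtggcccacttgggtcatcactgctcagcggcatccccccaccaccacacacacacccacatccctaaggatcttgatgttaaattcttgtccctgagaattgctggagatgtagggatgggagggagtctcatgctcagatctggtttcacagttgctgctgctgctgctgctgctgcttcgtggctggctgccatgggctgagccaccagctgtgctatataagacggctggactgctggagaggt
Thbs4: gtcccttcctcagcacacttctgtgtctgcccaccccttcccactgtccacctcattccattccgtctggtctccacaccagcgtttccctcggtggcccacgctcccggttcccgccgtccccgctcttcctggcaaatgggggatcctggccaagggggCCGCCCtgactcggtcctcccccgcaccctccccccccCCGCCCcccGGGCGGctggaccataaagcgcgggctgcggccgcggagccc
Aspn: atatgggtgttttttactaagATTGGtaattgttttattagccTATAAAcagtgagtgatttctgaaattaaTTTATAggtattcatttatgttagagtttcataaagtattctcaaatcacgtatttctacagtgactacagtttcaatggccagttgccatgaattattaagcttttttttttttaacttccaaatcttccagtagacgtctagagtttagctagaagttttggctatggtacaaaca
Ogn: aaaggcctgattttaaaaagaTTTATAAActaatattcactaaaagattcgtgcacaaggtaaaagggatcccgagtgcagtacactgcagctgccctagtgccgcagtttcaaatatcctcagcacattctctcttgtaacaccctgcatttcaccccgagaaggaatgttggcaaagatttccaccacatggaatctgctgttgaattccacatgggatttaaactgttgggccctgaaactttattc

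Over all 32851 promoters of the RefSeq table, 12.4% held TATAAA, 33.8% CCAAT and 32.7% GGGCGG in the same 250 bases, against 5, 7 and 11 of the 23 member promoters. The GC content was 64.4% for Bgn, 70.8% for Thbs4 and 56.0% for Cilp, above the 52.4% median of all promoters. It was 51.2% for Fmod, 30.0% for Aspn and 42.0% for Ogn, below that median. Of the promoters shown, the GGGCGG matches lay in Bgn and Thbs4 and the TATAAA matches in Aspn and Ogn. Among all 23, TATAAA also lay in Tnc, higher in KO at 3 and 10 weeks, Thbs2, lower at 6 and 10 weeks, and Spp1, which passed at no age. Counted from the gene start, the TATAAA matches began at −207 and −178 in Aspn and at −229 and −227 in Ogn. Fmod and Cilp held no exact match to the 3 motifs. Near forms, such as the tatataa close to the gene start in Cilp, were not marked. Whether any match acts as a promoter element was not tested.

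Several members lie side by side. On chromosome 13, Aspn, Omd and Ogn follow each other with gaps of 15.2 and 15.5 kb; on chromosome 10, Dcn and Lum are 47.3 kb apart; and on chromosome 1, Fmod and Prelp are 116 kb apart. Dcn and Lum were both higher in KO at 6 weeks, as were Fmod and Prelp. On chromosome 13, Ogn was lower in KO at 3 and 10 weeks, and the log2 differences of Aspn and Omd at these ages were also below 0 but did not pass (−0.70 and −0.57 at 3 weeks, −0.31 and −0.36 at 10 weeks). At 6 weeks Omd was higher in KO on few reads, and neither Aspn nor Ogn passed. The calls of Omd, Prelp and Ogn named here were each lost in at least 1 fit that left out 1 library. The 10-week values of Aspn and Omd changed sign in some of these fits.

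Per kb of exon, Sparc and Dcn had the highest levels in WT and the members spanned a wide range down to the lowest, Fmod, Omd, Loxl4 and Cthrc1 at 3 weeks. Sparc, a collagen-binding matricellular protein, stood at 322 ± 13.3 CPM per kb (SD, n = 3) in WT and 322 ± 24.6 in KO at 3 weeks, ahead of Dcn at 153 ± 19.8 and 130 ± 17.1. Mgp, an inhibitor of calcification, was next at 48.0 ± 9.63 in WT and 80.7 ± 5.78 in KO. By 10 weeks Dcn led in WT at 142 ± 1.06 CPM per kb, before Sparc at 114 ± 13.4 and Mgp at 57.3 ± 1.47. In KO at that age Mgp at 171 ± 32.9 and Dcn at 168 ± 18.4 did not differ beyond their spread, and Sparc followed at 125 ± 5.76. Together the 38 members took 0.156% to 0.336% of counts in WT and 0.220% to 0.430% in KO libraries.

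KO was compared with WT at each age to see how the RNA of the matrix genes differs at the 3 ages. At 3 weeks 13 of 37 tested members were higher in KO and 1 lower, at 6 weeks 23 higher and 2 lower, and at 10 weeks 19 higher and 3 lower (edgeR quasi-likelihood test, Benjamini-Hochberg adjusted p under 0.05 over all genes tested). In either direction these were 14, 25 and 22 members, where 15.3%, 23.8% and 29.3% of all genes passed. Of all 15778 genes, 8.65% were higher and 6.68% lower at 3 weeks, 11.0% and 12.8% at 6 weeks, and 14.6% and 14.7% at 10 weeks. The median log2 difference of the 37 was 0.57, 0.88 and 0.68, beside 0.0015, 0.0042 and −0.031 over all genes. The 3 KO values lay wholly above the 3 WT values for 17, 27 and 21 members at the 3 ages (15.7%, 21.9% and 19.2% of all genes) and wholly below for 2, 3 and 3 (14.9%, 22.2% and 21.4%). In either direction 30.5%, 44.2% and 40.5% of all genes had groups that did not overlap. CPM is used for levels and log2 for differences throughout, each difference with its SE, taken as the difference over the square root of the F statistic.

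Cilp, Mfap2, Mfap4, Mgp, Bgn, Lox, Loxl1, Fbln2 and Emilin1 were higher in KO at all 3 ages, 9 of 37 where 3.75% of all genes did so. No member was lower at all 3. With all 18 libraries Eln, Aspn, Sparc, Spp1, Fbln5, Comp and Fap passed at none. The other members passed at 1 or 2 ages and are given by role below. Since this is bulk tissue, fewer cells of a type and less RNA per cell cannot be told apart.

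**Figure D1:**
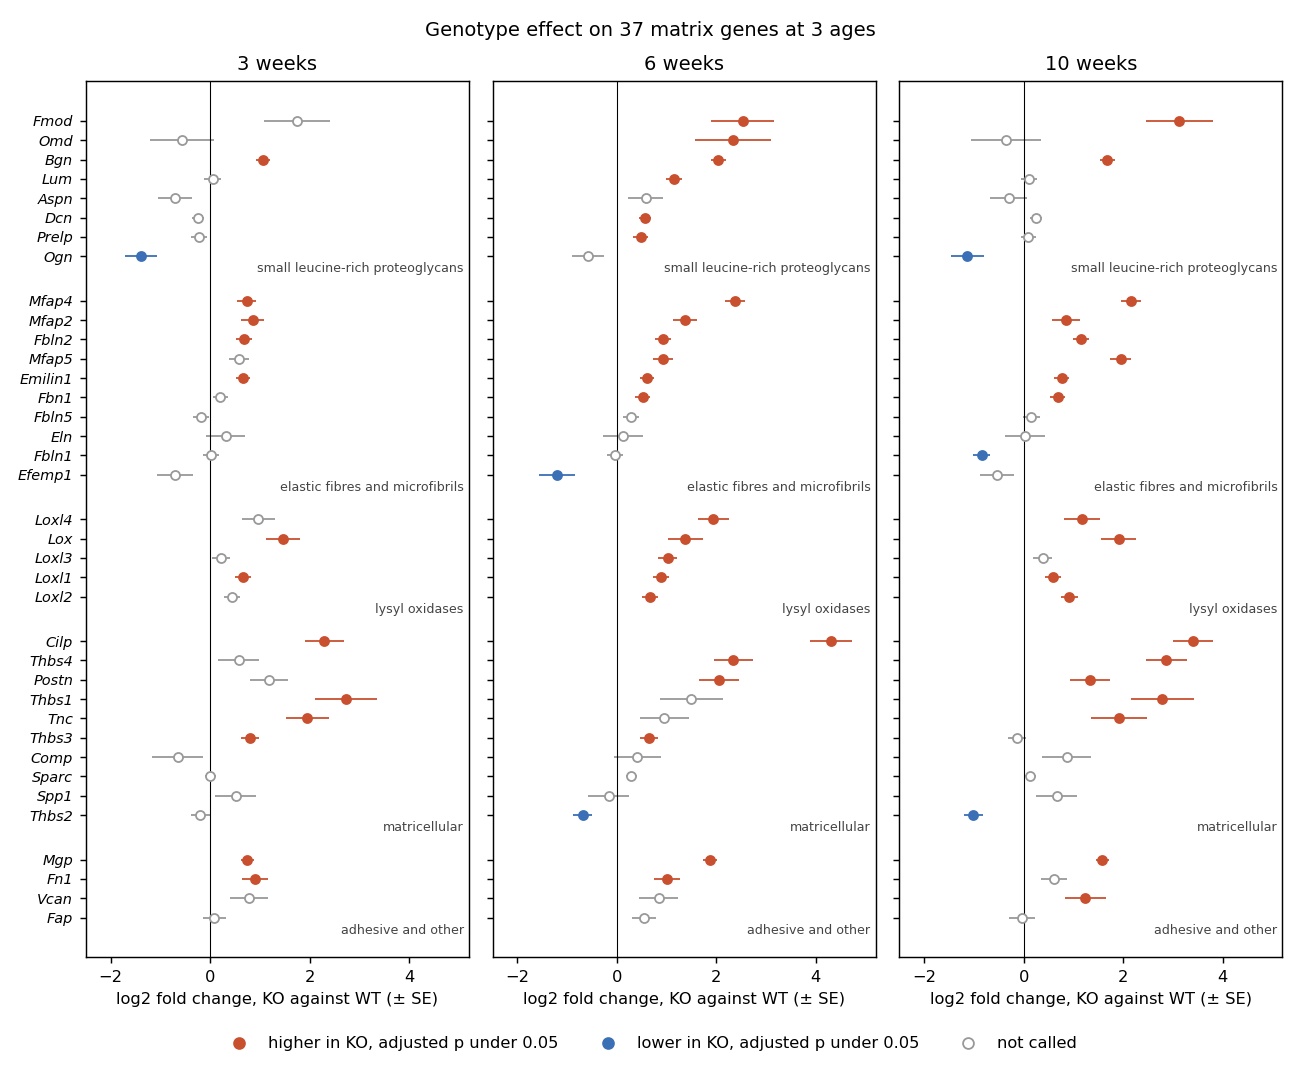
Log2 difference between KO and WT (horizontal axis, ± SE) of the 37 tested members, by role, at 3, 6 and 10 weeks; red and blue points passed the test as higher and lower in KO, and open grey points did not pass. All 5 lysyl oxidases lie to the right of 0 at 6 weeks, and Cilp, Thbs4, Thbs1 and Fmod have the largest differences at 10 weeks.

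Among the small leucine-rich proteoglycans, 1 of 8 was higher and 1 lower at 3 weeks, 6 higher and none lower at 6 weeks, and 2 higher and 1 lower at 10 weeks. The group's median log2 difference was −0.23, 0.87 and 0.10 at these ages. Bgn, biglycan, which binds collagen and also signals to immune cells when released, was the one raised throughout. It stood at 137, 135 and 165 CPM in WT and 273, 391 and 248 CPM in KO at 3 weeks. At 6 weeks Bgn was at 112, 134 and 137 against 468, 507 and 599 CPM. At 10 weeks Bgn was at 140, 133 and 113 against 381, 443 and 409 CPM. Every KO library was above every WT library at each age, and the WT libraries stayed near one level. The log2 differences were 1.06 ± 0.148, 2.04 ± 0.152 and 1.67 ± 0.150 (adjusted p = 4.2e-05, 3.93e-09 and 4.45e-08).

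Fmod, fibromodulin, which competes with lumican for a site on collagen, was scarce in WT. It stood at 0.44, 3.42 and 2.57 CPM in WT and 10.7, 12.1 and 15.1 CPM in KO at 6 weeks. At 10 weeks Fmod was at 0.69, 2.41 and 0.814 against 10.1, 11.5 and 12.4 CPM. The groups did not overlap at either age, and WT values varied several-fold among themselves. Its log2 difference was 2.53 ± 0.631 at 6 weeks and 3.13 ± 0.680 at 10 weeks (adjusted p = 0.00938 and 0.00317). At 3 weeks it was 1.75 ± 0.666, which did not pass (adjusted p = 0.0965).

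Dcn, decorin, and Lum, lumican, both limit the sideways growth of collagen fibrils. Both passed as higher in KO at 6 weeks and at neither other age. Lum stood at 45.0, 36.7 and 38.1 CPM in WT and 77.4, 94.0 and 94.4 CPM in KO at 6 weeks (log2 1.15 ± 0.166, adjusted p = 3.1e-05). Its groups overlapped at 3 weeks (51.9 to 76.3 CPM in WT, 49.0 to 73.9 CPM in KO) and at 10 weeks (33.5 to 45.5 and 37.4 to 47.6 CPM). Dcn stood at 324, 288 and 253 CPM in WT and 406, 468 and 412 CPM in KO at 6 weeks (log2 0.57 ± 0.121, adjusted p = 0.00135). At 3 weeks Dcn had a log2 difference of −0.24 ± 0.121 and at 10 weeks of 0.24 ± 0.121, neither past the threshold (adjusted p = 0.195 and 0.147). The 10-week groups still did not overlap, at 298, 296 and 294 CPM in WT and 389, 347 and 312 CPM in KO. The change of the Dcn effect from 6 to 10 weeks, −0.33 ± 0.171, did not pass (adjusted p = 0.265). Prelp, a proteoglycan of basement membranes and connective tissue, differed by 0.48 ± 0.151 at 6 weeks (adjusted p = 0.0245). Omd, osteomodulin, known from bone, was called higher at 6 weeks on few reads, 3, 4 and 1 counts in WT against 17, 12 and 9 in KO (adjusted p = 0.0285).

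Ogn, mimecan, was the proteoglycan that was lower in KO. It stood at 107, 93.0 and 56.6 CPM in WT and 20.9, 35 and 42.6 CPM in KO at 3 weeks. At 6 weeks Ogn was at 61.1, 51.0 and 44.4 against 38.9, 40.6 and 25.4 CPM. At 10 weeks Ogn was at 55.5, 46.5 and 47.6 against 34.0, 19.9 and 14.6 CPM. All KO libraries were below all WT libraries at each age. The log2 differences were −1.38 ± 0.323 and −1.13 ± 0.329 at 3 and 10 weeks (adjusted p = 0.0102 and 0.0179), and the 6-week value of −0.58 ± 0.321 did not pass (adjusted p = 0.229). Aspn, asporin, had 20.5 to 37.4 CPM in WT and 13.3 to 21.7 in KO at 3 weeks, and 8.55 to 11.5 against 12.6 to 17.3 CPM at 6 weeks. Its log2 differences of −0.70 ± 0.344 and 0.58 ± 0.356 did not pass (adjusted p = 0.194 and 0.276).

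**Figure D2:**
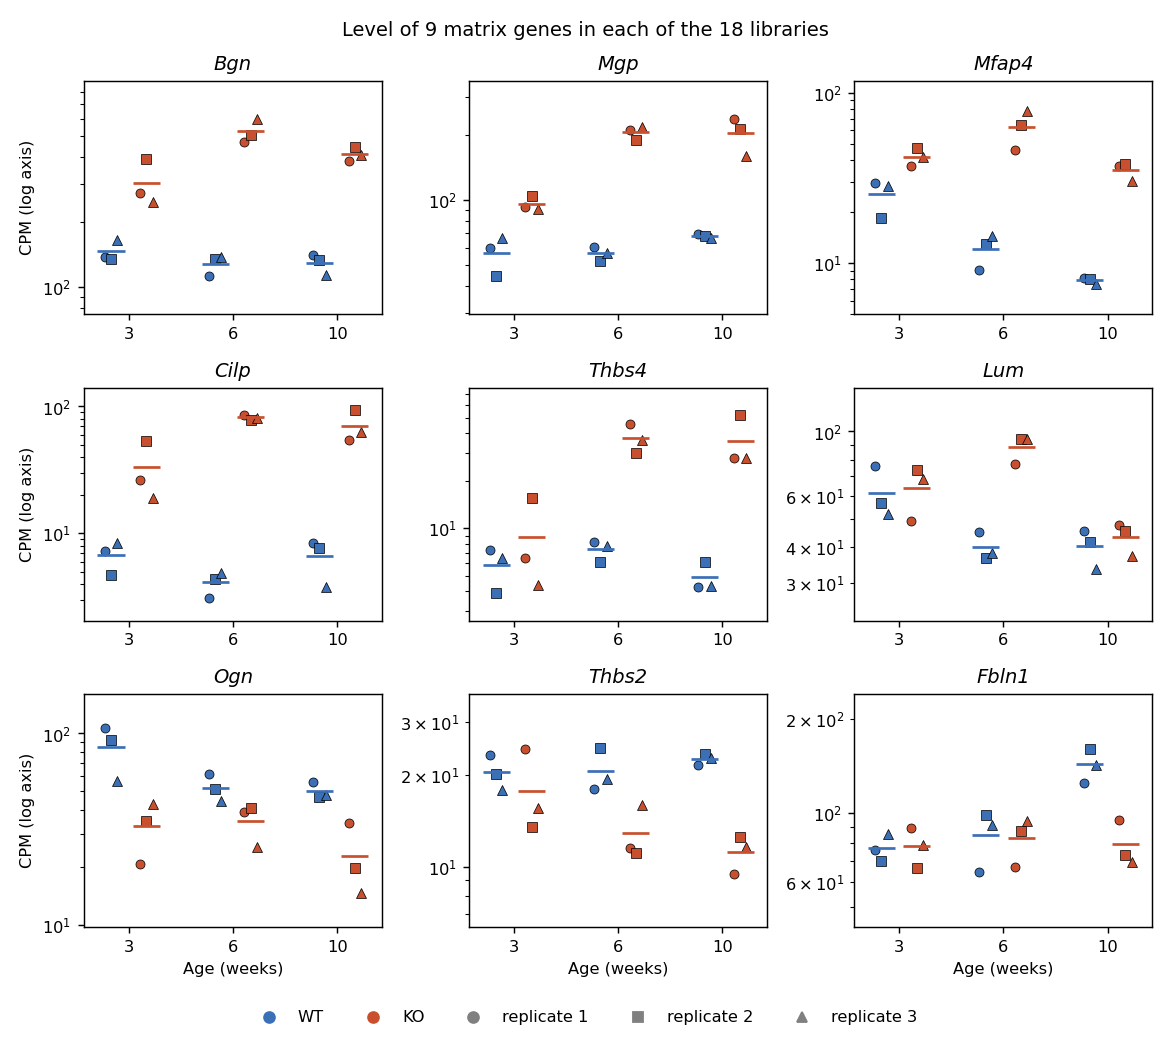
CPM on a log axis of 9 members in each of the 18 libraries, by age in weeks; blue is WT, red is KO, the symbol gives the replicate and each bar the mean of 3. For Bgn, Mgp, Cilp and Mfap4 all KO points lie above all WT points at every age, Ogn points in KO lie below, and Fbln1 separates at 10 weeks, where WT is at 125 to 160 CPM.

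Of the 10 genes of elastic fibres and microfibrils, 4 were higher at 3 weeks and none lower; 6 were higher and 1 lower at both 6 and 10 weeks. The core protein did not pass at any age: Eln, elastin, stood at 230 to 274 CPM in WT and 294 to 336 in KO at 3 weeks, 98.2 to 143 against 70.1 to 225 CPM at 6 weeks, and 77.6 to 115 against 66.1 to 155 CPM at 10 weeks. The highest KO values of Eln at 6 and 10 weeks, 225 and 155 CPM, came from the libraries rich in atrial transcripts, and the other 4 KO values (70.1, 85.6, 72.1 and 66.1 CPM) lay below every WT value of their age. Its log2 differences were 0.31 ± 0.398, 0.12 ± 0.401 and 0.016 ± 0.403 over all libraries (adjusted p = 0.658, 0.876 and 0.983). Without the 3 libraries richest in atrial transcripts Eln was lower in KO at 6 weeks, by −0.58 ± 0.168, and at 10 weeks, by −0.46 ± 0.168 (adjusted p = 0.0177 and 0.0492). Mfap4, a microfibril-associated glycoprotein that binds elastin and collagen, stood at 29.3, 18.4 and 28.4 CPM in WT and 37, 47.3 and 42.1 CPM in KO at 3 weeks. At 6 weeks Mfap4 was at 9.07, 12.9 and 14.3 against 46.3, 64.7 and 78.0 CPM. At 10 weeks Mfap4 was at 8.19, 8.06 and 7.50 against 37.2, 38.3 and 30.4 CPM. The groups did not overlap at any age. The WT mean went from 25.4 to 12.1 and 7.92 CPM, and the KO mean from 42.1 to 63.0 and 35.3 CPM. Log2 differences were 0.73 ± 0.193, 2.38 ± 0.204 and 2.15 ± 0.209 (adjusted p = 0.0145, 7.7e-08 and 3.0e-07).

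Mfap5 and Mfap2, small glycoproteins that sit on fibrillin, are given next. Mfap5 stood at 11.9, 11.6 and 11.0 CPM in WT and 53.0, 48.2 and 31.6 CPM in KO at 10 weeks. That was a log2 difference of 1.94 ± 0.211 (adjusted p = 1.5e-06). It followed 0.92 ± 0.202 at 6 weeks (adjusted p = 0.00222) and 0.58 ± 0.197 at 3 weeks, which did not pass (adjusted p = 0.0556). Mfap2 differed by 0.85 ± 0.232, 1.37 ± 0.245 and 0.84 ± 0.279 at the 3 ages (adjusted p = 0.0157, 2.6e-04 and 0.0267). Levels ran from 1.16 to 6.59 CPM in WT and 2.53 to 12 CPM in KO. Fbn1, the fibrillin that forms the microfibril backbone, was higher by 0.52 ± 0.153 at 6 weeks and 0.68 ± 0.155 at 10 weeks (adjusted p = 0.0167 and 0.0021). Fbln2, a fibulin that binds fibrillin and fibronectin, differed by 0.69 ± 0.159, 0.92 ± 0.160 and 1.15 ± 0.161 (adjusted p = 0.00574, 2.2e-04 and 1.8e-05). Emilin1, found where elastin meets microfibrils, differed by 0.66 ± 0.145, 0.60 ± 0.145 and 0.76 ± 0.147 (adjusted p = 0.00348, 0.00397 and 4.4e-04).

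The remaining fibulins went otherwise. Fbln1, a fibulin of basement membranes and elastic fibres, stood at 76.3, 70.2 and 85.3 CPM in WT and 89.6, 66.8 and 78.8 CPM in KO at 3 weeks. At 10 weeks Fbln1 was at 125, 160 and 142 against 94.8, 73.4 and 69.6 CPM. The groups overlapped at 3 weeks and were apart at 10 weeks, with KO lower by a log2 difference of −0.85 ± 0.165 (adjusted p = 5.5e-04). Efemp1, another fibulin, was lower in KO at 6 weeks, at 4.89, 6.24 and 7.29 CPM in WT and 2.94, 1.26 and 3.82 CPM in KO (log2 −1.21 ± 0.358, adjusted p = 0.018). Its values of −0.71 ± 0.366 at 3 weeks and −0.54 ± 0.337 at 10 weeks did not pass (adjusted p = 0.212 and 0.253). Fbln5, which is needed for elastic fibre assembly, stayed between 16.1 and 30.5 CPM in all libraries and did not pass.

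All 5 lysyl oxidases were higher in KO at 6 weeks, 2 at 3 weeks and 4 at 10 weeks, and none was lower at any age. Lox itself stood at 4.27, 3.59 and 4.75 CPM in WT and 10.2, 18.5 and 6.17 CPM in KO at 3 weeks. At 6 weeks Lox was at 2.97, 3.55 and 2.47 against 7.49, 6.93 and 9.03 CPM. At 10 weeks Lox was at 2.61, 2.86 and 2.32 against 13.3, 10.9 and 5.08 CPM. KO libraries were above WT at each age, with replicate 2 highest at 3 weeks. The log2 differences were 1.47 ± 0.340, 1.38 ± 0.351 and 1.90 ± 0.359 (adjusted p = 0.0067, 0.00731 and 5.5e-04). Loxl1, the member most tied to elastin, differed by 0.66 ± 0.161, 0.88 ± 0.162 and 0.59 ± 0.162 (adjusted p = 0.00796, 4.1e-04 and 0.00929). Loxl2, which acts on basement membrane collagen, differed by 0.66 ± 0.162 at 6 weeks and 0.91 ± 0.167 at 10 weeks (adjusted p = 0.00423 and 2.7e-04), and by 0.44 ± 0.158 at 3 weeks, which did not pass (adjusted p = 0.0631).

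Loxl4 had its widest gap at 6 weeks, at 1.59, 2.05 and 1.31 CPM in WT and 7.14, 6.23 and 5.82 CPM in KO (log2 1.94 ± 0.320, adjusted p = 1.1e-04), with 1.17 ± 0.363 at 10 weeks (adjusted p = 0.0178) and 0.97 ± 0.332 at 3 weeks, just outside the threshold (adjusted p = 0.0527). Loxl3 was higher by 1.02 ± 0.186 at 6 weeks (adjusted p = 3.4e-04) and by 0.38 ± 0.184 at 10 weeks, which did not pass (adjusted p = 0.133). Loxl3 shares 11.6% of its exon bases with Htra2, a gene on the opposite strand with a mean of 28.2 CPM. Thbs3 shares 6.59% with Mtx1 (27.3 CPM) and Mfap4 4.63% with Mapk7 (12.9 CPM). The strand setting of the counting was not given, so reads of these pairs cannot be told apart there.

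The matricellular group had 4 genes higher at 3 weeks, 4 higher and 1 lower at 6 weeks, and 5 higher and 1 lower at 10 weeks, of 10. Cilp, a secreted protein first known from cartilage and made by cardiac fibroblasts, had the widest difference of the whole set at 6 weeks. It stood at 7.28, 4.67 and 8.36 CPM in WT and 26.5, 53.9 and 19.1 CPM in KO at 3 weeks. At 6 weeks Cilp was at 3.08, 4.40 and 4.88 against 85.9, 78.4 and 81.5 CPM. At 10 weeks Cilp was at 8.43, 7.67 and 3.78 against 54.0, 93.9 and 62.7 CPM. No library of one group reached the other, and the KO libraries at 6 weeks lay close together. The log2 differences were 2.30 ± 0.389, 4.31 ± 0.418 and 3.40 ± 0.398 (adjusted p = 0.00124, 4.9e-06 and 2.2e-05).

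The thrombospondins, which bind matrix and cell surface receptors, split in direction. Thbs4 stood at 7.28, 3.92 and 6.46 CPM in WT and 6.52, 15.6 and 4.40 CPM in KO at 3 weeks. At 6 weeks Thbs4 was at 8.25, 6.15 and 7.71 against 45.7, 30.0 and 36.1 CPM. At 10 weeks Thbs4 was at 4.24, 6.16 and 4.30 against 27.7, 51.5 and 27.8 CPM. Its groups overlapped at 3 weeks and were far apart later, with log2 differences of 2.34 ± 0.399 and 2.87 ± 0.417 at 6 and 10 weeks (adjusted p = 5.9e-04 and 1.3e-04). Thbs1, an activator of latent TGF-beta, stood at 7.96, 8.78 and 11.8 CPM in WT and 15.7, 95.6 and 77.4 CPM in KO at 3 weeks. At 6 weeks Thbs1 was at 6.71, 7.31 and 6.87 against 24.1, 13.4 and 21.7 CPM. At 10 weeks Thbs1 was at 5.77, 9.63 and 10.3 against 102, 52.5 and 22.9 CPM. KO was above WT in each library but spread widely, and the log2 differences of 2.73 ± 0.631 at 3 weeks and 2.79 ± 0.637 at 10 weeks passed (adjusted p = 0.0117 and 0.00535), while 1.5 ± 0.635 at 6 weeks did not (adjusted p = 0.113).

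Thbs2, close in structure to Thbs1, was lower in KO. It stood at 18, 24.7 and 19.4 CPM in WT and 11.5, 11.1 and 16.0 CPM in KO at 6 weeks. At 10 weeks Thbs2 was at 21.6, 23.6 and 22.8 against 9.47, 12.5 and 11.6 CPM. The log2 differences were −0.69 ± 0.193 at 6 weeks and −1.02 ± 0.196 at 10 weeks (adjusted p = 0.0123 and 5.0e-04). At 3 weeks the groups overlapped. Thbs3 was higher in KO at 3 and 6 weeks, by 0.81 ± 0.182 and 0.65 ± 0.181 (adjusted p = 0.0043 and 0.0109), and at 10 weeks stood at 8.08 to 11.8 CPM in WT and 8.76 to 10.1 CPM in KO. Comp, the cartilage member of the same family, had 1.12 to 8.47 CPM and passed at no age, with 0.86 ± 0.496 at 10 weeks (adjusted p = 0.212).

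Postn, periostin, and Tnc, tenascin-C, are made by activated fibroblasts and are low in the resting adult ventricle. Postn stood at 55.6, 48.9 and 55.4 CPM in WT and 81.4, 215 and 65.2 CPM in KO at 3 weeks. At 6 weeks Postn was at 18.6, 22.0 and 22.0 against 102, 76.1 and 82.0 CPM. At 10 weeks Postn was at 18, 18.8 and 11.0 against 46.2, 48.5 and 25.2 CPM. KO was above WT throughout, with replicate 2 far above the others at 3 weeks. The log2 differences were 2.06 ± 0.398 and 1.32 ± 0.400 at 6 and 10 weeks (adjusted p = 0.00194 and 0.0238), and 1.18 ± 0.382 at 3 weeks did not pass (adjusted p = 0.0549). Tnc stood at 4.56, 4.58 and 5.38 CPM in WT and 12.5, 35.3 and 8.60 CPM in KO at 3 weeks. At 10 weeks Tnc was at 0.69, 1.29 and 0.465 against 3.72, 3.63 and 1.93 CPM. Its log2 differences were 1.95 ± 0.436 and 1.91 ± 0.563 (adjusted p = 0.00647 and 0.0176), with 0.96 ± 0.486 at 6 weeks, which did not pass (adjusted p = 0.179).

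Sparc, whose level per kb of exon was the highest of the members at 3 weeks, fell with age in both genotypes and did not pass between them at any age. It stood at 1160 to 1260 CPM in WT and 1110 to 1280 CPM in KO at 3 weeks, 695 to 756 against 744 to 1030 CPM at 6 weeks (log2 0.28 ± 0.113, adjusted p = 0.0724). It was at 394 to 490 against 451 to 495 CPM at 10 weeks. Spp1, osteopontin, which macrophages and activated fibroblasts secrete, had 1.37 to 6.29 CPM and did not pass, with 0.66 ± 0.407 at 10 weeks (adjusted p = 0.248).

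Of the adhesive and other genes, Mgp passed at all 3 ages, Fn1 at 3 and 6 weeks and Vcan at 10 weeks. In this group 2 of 4 tested genes were higher at each age and none lower. Mgp stood at 59.7, 44.4 and 66.8 CPM in WT and 92.5, 104 and 91.1 CPM in KO at 3 weeks. At 6 weeks Mgp was at 60.5, 52.4 and 56.8 against 211, 190 and 217 CPM. At 10 weeks Mgp was at 69.8, 67.8 and 66.4 against 237, 214 and 160 CPM. The groups were apart at each age, with little spread in WT. Log2 differences were 0.75 ± 0.137, 1.87 ± 0.140 and 1.58 ± 0.139 (adjusted p = 7.3e-04, 3.93e-09 and 2.87e-08). Fn1, fibronectin, which cells bind through integrins, was higher by 0.90 ± 0.263 at 3 weeks and 1.01 ± 0.265 at 6 weeks (adjusted p = 0.0315 and 0.0114) and differed by 0.61 ± 0.267 at 10 weeks, which did not pass (adjusted p = 0.102). Vcan, the large aggregating proteoglycan versican, differed by 0.78 ± 0.385, 0.84 ± 0.395 and 1.24 ± 0.405, and the last passed (adjusted p = 0.2, 0.151 and 0.0336). The change of the Vcan effect from 3 to 10 weeks, 0.46 ± 0.555, did not pass (adjusted p = 0.705). Fap, a surface protease of activated fibroblasts, had 1.98 to 5.92 CPM and did not pass. For Cthrc1, a fit to the 15914 genes of the member filter gave log2 differences of 0.22, 0.65 and 0.22 (adjusted p = 0.851, 0.505 and 0.859).

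**Figure D3:**
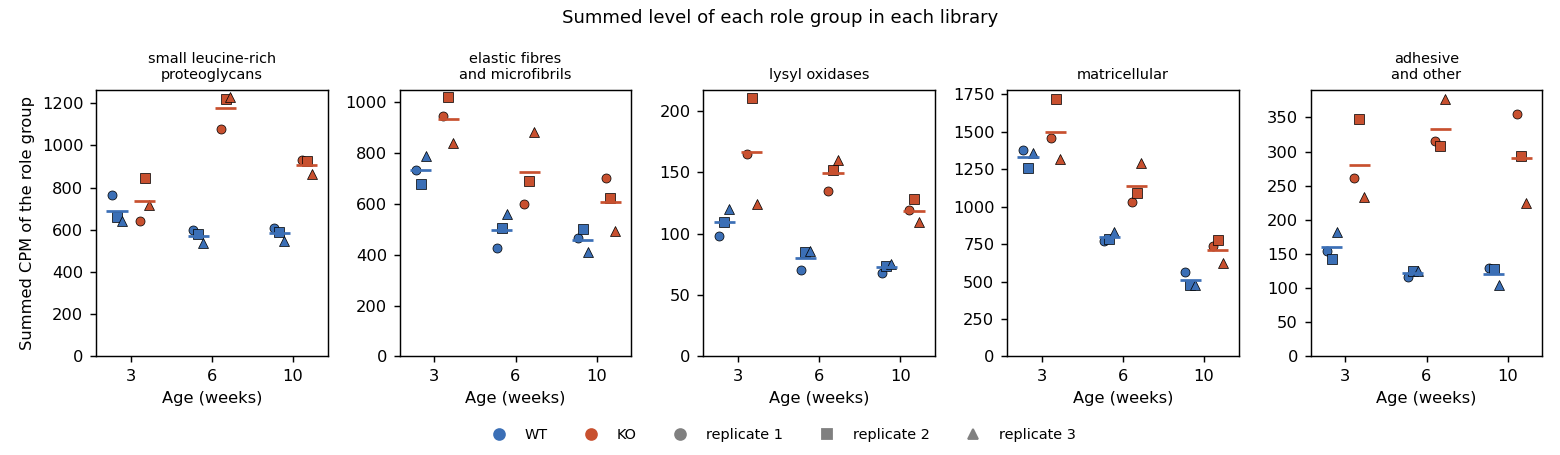
Summed CPM of each role group (vertical axis, from 0) in each of the 18 libraries, by age in weeks; blue is WT, red is KO, the symbol gives the replicate and each bar the mean of 3. The KO libraries lie above the WT libraries at 6 and 10 weeks in 4 of the groups, while in elastic fibres and microfibrils KO replicate 3 at 10 weeks (495 CPM) lies under WT replicate 2 (503 CPM).

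Summed by role, the proteoglycans ran from 643 to 767 CPM in WT and 641 to 847 in KO at 3 weeks, and from 536 to 599 against 1080 to 1230 CPM at 6 weeks. The lysyl oxidases ran from 98.2 to 120 CPM in WT and 124 to 210 in KO at 3 weeks, and from 68.0 to 75.4 against 109 to 128 CPM at 10 weeks. The matricellular sum, in which Sparc has the highest level, ran in WT from 1260 to 1380 CPM at 3 weeks and from 479 to 565 CPM at 10 weeks, against 1320 to 1720 and 622 to 776 CPM in KO. The plot of the sums shows the proteoglycan groups overlapping at 3 weeks and apart later.

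Calls did not all hold when 1 library was left out; a call is said to be lost where its adjusted p no longer lay under 0.05. At 3 weeks 8 of 14 held in each of 6 such fits (Cilp, Mgp, Bgn, Tnc, Thbs3, Lox, Fbln2 and Emilin1). Fn1 was lost without KO replicate 1 or 2 or WT replicate 1 or 2 (adjusted p = 0.073, 0.125, 0.134 and 0.102). Mfap2 and Mfap4 were lost without KO replicate 2 (0.0736 and 0.0613) or WT replicate 2 (0.0905 and 0.0746). Thbs1 was lost without WT replicate 1 or 2 (0.0609 and 0.0501), and Ogn and Loxl1 without WT replicate 1 (0.0554 and 0.06). The calls of Tnc and Thbs1 were also lost in a fit to the 3-week libraries alone (0.0735 and 0.105). The count ran from 10, without WT replicate 1, to 18, without KO replicate 3.

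At 6 weeks 18 of 25 held, all of them higher in KO. Those lost were Fn1 without KO replicate 3 or WT replicate 1 (0.0612 and 0.0611) and Fbn1 without KO replicate 2 or 3 or WT replicate 1 (0.0535, 0.0832 and 0.0955). Prelp was lost without the same 3 (0.123, 0.0895 and 0.12), and Thbs2 without KO replicate 1 or 2 or WT replicate 2 (0.0674, 0.069 and 0.0776). Also lost were Thbs3 without KO replicate 2 (0.0845), Efemp1 without KO replicate 2 or WT replicate 3 (0.0885 and 0.0749), and Omd without KO replicate 1 or any WT replicate (0.0567 to 0.112). Both members lower in KO at that age, Thbs2 and Efemp1, were thus among those lost.

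At 10 weeks 15 of 22 held, 13 higher and 2 lower, the latter Thbs2 and Fbln1. Postn, Vcan and Tnc were each lost without KO replicate 1 or 2 or WT replicate 1 or 3, with adjusted p from 0.05 to 0.132. Mfap2 was lost without KO replicate 3 or WT replicate 1 or 3 (0.0841, 0.0894 and 0.11) and Ogn without KO replicate 2 or 3 or WT replicate 1 (0.0765, 0.0728 and 0.0573). Loxl4 was lost without KO replicate 3 or WT replicate 3 (0.097 and 0.0878), and Loxl1 without WT replicate 1 (0.0534). Mfap2 and Tnc were also lost with limma voom (0.0703 and 0.1), and Mfap2, Vcan and Loxl4 in a fit to the 10-week libraries alone (0.0695, 0.0929 and 0.0551). Without the 3 libraries richest in atrial transcripts, left out together as an alternative chosen after seeing the data, 20, 24 and 24 members were called at 3, 6 and 10 weeks, of which 3, 3 and 6 were lower in KO. Fbn1 and Prelp at 6 weeks (0.0811 and 0.0857) and Vcan at 10 weeks (0.15) were lost. Postn, Mfap5, Loxl2 and Loxl4 were then also called higher at 3 weeks (0.0295, 0.0032, 0.0113 and 0.0223), and Aspn and Comp lower (log2 −0.89 and −1.32, adjusted p = 0.0329 and 0.0379). At 10 weeks Aspn and Efemp1 were also called lower (−0.91 and −1.07, adjusted p = 0.0333 and 0.00722), and Eln as given above. With no filter on low counts 22 members were called at 3 weeks, against 14. The share of all genes called in the alternative fits, here and below, is not given. Counts of members in them are thus not read as a result about the members.

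The genotype effect itself was compared between ages. What was tested is the change of the signed log2 difference between KO and WT. From 3 to 6 weeks it rose in 5 of 37 members and fell in none, where it did so in 0.494% and 1.10% of all genes (1.59% in either direction). With no filter on low counts 12 members passed, 11 up and 1 down, and the cause of that shift was not tested. The 5 that rose with the filter were Mfap4, Mgp, Lum, Bgn and Dcn. Their log2 changes of the effect were 1.65 ± 0.276, 1.12 ± 0.193, 1.10 ± 0.232, 0.98 ± 0.208 and 0.81 ± 0.171. In the same order, adjusted p = 0.00506, 0.00506, 0.0187, 0.0188 and 0.0177. Mfap4 and Mgp held in all 12 fits that left out 1 library. Bgn was lost without WT replicate 1 or KO replicate 3 of the 6-week groups or KO replicate 3 of the 3-week group (0.066, 0.0596 and 0.0508). Dcn was lost without WT replicate 1 at 3 weeks or WT replicate 3 or KO replicate 2 at 6 weeks (0.0616, 0.0635 and 0.0573), and Lum without these libraries or KO replicate 3 at 6 weeks (0.0514 to 0.0598). With the 3 libraries richest in atrial transcripts left out, 3 members were called; Bgn and Lum were not (0.0908 and 0.0544).

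From 6 to 10 weeks the signed difference rose in 1 member and fell in 2, near the 3.12% and 2.63% of all genes (5.75% in either direction), and 7 members passed with no filter. Lum changed by −1.04 ± 0.233 (adjusted p = 0.0118) and held in each fit without 1 library, as the KO level went from 77.4 to 94.4 CPM at 6 weeks to 37.4 to 47.6 CPM at 10 weeks. Mfap5 (1.02 ± 0.288, adjusted p = 0.0442) and Fbln1 (−0.81 ± 0.232, adjusted p = 0.0435) were lost in 10 and 8 of 12 such fits, with adjusted p up to 0.0982 and 0.115. From 3 to 10 weeks, a comparison that shares libraries with both others, the signed difference rose in 4 members (2.82% of all genes) and fell in 2 (2.94%, and 5.76% in either direction), and 11 members passed with no filter. Thbs4 changed by 2.29 ± 0.581, Mfap4 by 1.42 ± 0.282, Mfap5 by 1.37 ± 0.286 and Mgp by 0.83 ± 0.193 (adjusted p = 0.0335, 0.00511, 0.00784 and 0.0123). Thbs3 changed by −0.94 ± 0.257 and Fbln1 by −0.87 ± 0.232 (0.0334 and 0.0303). For Fbln1 this was a difference that moved away from 0, from 0.022 at 3 weeks and −0.036 at 6 weeks to −0.85 at 10 weeks, whereas Thbs3 went from 0.81 to −0.13. Mfap4, Mfap5 and Mgp held without any 1 library. Thbs3, Thbs4 and Fbln1 were lost in 7, 6 and 7 of 12 fits, with adjusted p up to 0.103, 0.0954 and 0.104. Mgp and Thbs4 were also lost without the 3 libraries richest in atrial transcripts (0.0577 and 0.0523).

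Age moved many of these genes within each genotype. In WT, 3 members rose and 13 fell from 3 to 10 weeks (8.45% and 8.08% of all genes), and in KO 7 rose and 12 fell (9.80% and 10.3%). In either direction 16.5% of all genes passed in WT and 20.1% in KO. Of the members, 11 fell in both genotypes: Fn1, Postn, Eln, Fbn1, Mfap2, Lum, Aspn, Tnc, Sparc, Loxl2 and Fap. Sparc fell by 1.5 ± 0.115 on the log2 scale in WT and by 1.37 ± 0.115 in KO (adjusted p = 1.3e-08 and 7.2e-08). Loxl2 fell by 1.71 ± 0.167 and 1.23 ± 0.162 (5.1e-07 and 1.6e-05), and Tnc by 2.56 ± 0.541 and 2.60 ± 0.459 (0.00408 and 8.0e-04). These 3, with Postn, Fbn1 and Mfap2, held in both genotypes without any 1 library. The KO fall of Postn was lost in a fit to the KO libraries of these ages alone (adjusted p = 0.129).

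Mfap4 and Mfap5 fell in WT and not in KO. Mfap4 went from 18.4 to 29.3 CPM at 3 weeks to 7.50 to 8.19 CPM at 10 weeks in WT (log2 −1.68 ± 0.208, adjusted p = 1.9e-05), while KO had 37 to 47.3 and 30.4 to 38.3 CPM. Mfap5 went from 33.7 to 42.1 to 11.0 to 11.9 CPM in WT (−1.70 ± 0.210, adjusted p = 2.1e-05), while KO had 37.8 to 76.6 and 31.6 to 53.0 CPM. For both genes that difference between genotypes is the one tested above. Fbln1 rose in WT by 0.89 ± 0.164 (adjusted p = 9.2e-04). Efemp1 rose in both genotypes, by 1.20 ± 0.344 in WT and 1.36 ± 0.362 in KO (adjusted p = 0.0224 and 0.0111). The rise of Efemp1 was lost in 4 of 6 WT fits and 2 of 6 KO fits that left out 1 library, up to 0.0986 and 0.0692. In KO it was also lost without the 3 libraries richest in atrial transcripts (log2 0.68, adjusted p = 0.159). A fit to the KO libraries of these ages alone lost it too (0.0695). Thbs3 rose in WT by 0.69 ± 0.183 (adjusted p = 0.0122) and was lost without WT replicate 1 or 2 of either age (0.0544 to 0.0684).

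In KO, Thbs4 rose from 3 to 10 weeks by 2.03 ± 0.394, Mgp by 1.09 ± 0.137 and Prelp by 0.61 ± 0.152 (adjusted p = 0.00213, 9.6e-06 and 0.00677), and these held without any 1 library. The rise of Thbs4 was lost in a fit to the KO libraries of these ages alone (adjusted p = 0.0521). Cilp, Bgn and Dcn rose by 1.09 ± 0.354, 0.44 ± 0.146 and 0.37 ± 0.121 (0.0446, 0.0395 and 0.0355). They were each lost in 3 or 4 of 6 fits that left out 1 library, up to 0.157, 0.184 and 0.168. Without the 3 libraries richest in atrial transcripts they were lost too (0.1, 0.106 and 0.092). Thbs2 fell in KO by 0.68 ± 0.196 (0.0178) and was lost without KO replicate 1 of either age (0.158 and 0.0974). The fall of Fn1, Eln, Lum, Aspn and Fap was lost in at least 1 such fit in WT or KO, with adjusted p up to 0.139, and that of Eln in all 6 WT fits.

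**Figure D4:**
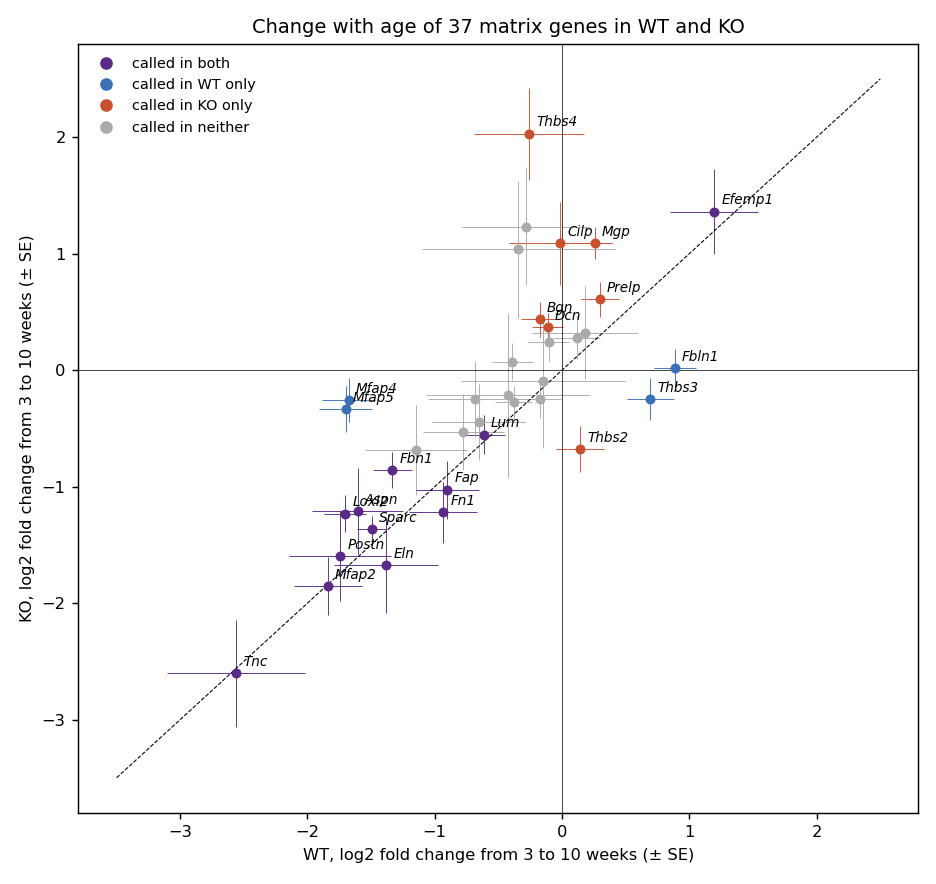
Log2 change from 3 to 10 weeks in KO (vertical axis, ± SE) against that in WT (horizontal axis, ± SE) of the 37 tested members; colours show in which genotype a member was called and the dashed line marks equal change. Tnc, Mfap2, Postn, Sparc and Loxl2 lie low on both axes, Thbs4 lies high for KO near 0 for WT, and Mfap4 and Mfap5 lie at −1.68 and −1.70 for WT and near 0 for KO.

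By interval, no member rose and 8 fell in WT from 3 to 6 weeks (2.94% and 2.24% of all genes), and 1 rose and 5 fell from 6 to 10 weeks (3.64% and 5.12%). In either direction these intervals took 5.18% and 8.77% of all genes. In KO 7 rose and 3 fell from 3 to 6 weeks (5.34% and 6.25%), and 1 rose and 7 fell from 6 to 10 weeks (6.52% and 6.14%), with 11.6% and 12.7% in either direction. With no filter on low counts 16 and 10 members passed in WT over these intervals and 22 and 16 in KO, and with only the libraries compared 14 and 12 in WT and 9 and 5 in KO. The KO rises to 6 weeks that held without any 1 library were those of Thbs4 (2.09 ± 0.393), Mgp (1.11 ± 0.137), Prelp (0.80 ± 0.152), Bgn (0.79 ± 0.147) and Dcn (0.66 ± 0.121), 3 of them proteoglycans (adjusted p = 0.00337, 2.4e-05, 0.00145, 0.00129 and 0.00107). After 6 weeks Loxl4, Mfap2, Lum, Sparc and Mfap4 fell in KO by 1.62 ± 0.319, 1.45 ± 0.250, 1.03 ± 0.166, 0.89 ± 0.114 and 0.84 ± 0.192 (adjusted p = 0.00219, 7.7e-04, 4.5e-04, 4.8e-05 and 0.00759), which held likewise. The fall of Mfap4 was lost without the 3 libraries richest in atrial transcripts (0.0825).

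Other matrix genes of a list set beside the members moved in the same ages. Of 48 tested glycoproteins and proteoglycans, 13 were higher and 3 lower in KO at 3 weeks, 19 and 5 at 6 weeks, and 16 and 7 at 10 weeks, with median log2 differences of 0.21, 0.28 and 0.12. In either direction 15.3%, 23.8% and 29.3% of all genes passed at these ages. Adamtsl2, a secreted regulator of fibrillin microfibrils and TGF-beta, differed by 1.12 ± 0.140, 1.53 ± 0.142 and 2.19 ± 0.147 (adjusted p = 1.0e-05, 9.2e-08 and 5.3e-10). Svep1, a large adhesion protein, differed by 1.58 ± 0.207, 2.5 ± 0.212 and 1.64 ± 0.207 (4.2e-05, 1.1e-07 and 8.6e-06). Aebp1, a collagen-binding protein, was higher by 1.15 ± 0.191 at 3 weeks, Crispld2 by 1.41 ± 0.152 at 6 weeks and Igfbp7 by 0.73 ± 0.115 at 10 weeks (3.4e-04, 7.9e-07 and 5.1e-05), and each of these 3 passed as higher at the other ages too. On the lower side, Dpt, dermatopontin, which binds decorin, differed by −0.79 ± 0.130, −0.91 ± 0.131 and −0.73 ± 0.131 at the 3 ages (2.4e-04, 2.5e-05 and 2.2e-04). Emilin2, a relative of Emilin1, differed by −1.62 ± 0.217 and −2.10 ± 0.227 at 6 and 10 weeks (3.3e-05 and 2.3e-06). Pxdn and Sned1 differed by −1.04 ± 0.116 and −1.51 ± 0.202 at 10 weeks (7.8e-07 and 1.1e-05). Ltbp1 at 3 weeks (−0.55 ± 0.117, 0.00258) and Vtn at 6 weeks (−1.17 ± 0.236, 0.0014) were also lower. Pxdn passed as lower at 6 weeks too, Ltbp1 at 6 and 10 weeks and Vtn at 10 weeks.

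Of 23 tested genes that build glycosaminoglycan chains, the sugar part of the proteoglycans, 2 were higher and 1 lower at 3 weeks, 4 and none at 6 weeks, and 8 and 2 at 10 weeks. At 3 and 6 weeks the share that passed in either direction was below the 15.3% and 23.8% of all genes, and at 10 weeks 29.3% of all genes passed. Chpf, which lengthens chondroitin chains, differed by 0.80 ± 0.117, 0.83 ± 0.117 and 0.71 ± 0.117 (adjusted p = 7.3e-05, 2.0e-05 and 9.9e-05). Chsy1 differed by 0.68 ± 0.163 at 6 weeks (0.00391), and at 10 weeks Csgalnact2 by 0.77 ± 0.188 (0.00383). Chst3, a chondroitin sulfotransferase, differed by 1.31 ± 0.340 at 3 weeks and 2.29 ± 0.337 at 10 weeks (0.013 and 3.9e-05). The 3-week call of Chst3 was lost without WT replicate 1 or KO replicate 3 (0.0763 and 0.091). Of 26 matrix receptors, 7 were higher and 1 lower, 10 and 1, and 11 and 3 at the 3 ages, beside 15.3%, 23.8% and 29.3% of all genes in either direction. Itga9, an integrin chain that binds tenascin-C and osteopontin, differed by 0.98 ± 0.176, 1.59 ± 0.178 and 1.45 ± 0.178 (7.9e-04, 2.3e-06 and 4.9e-06). Itgb5 differed by 0.63 ± 0.129, 1.08 ± 0.130 and 1.12 ± 0.130 (0.00193, 2.9e-06 and 1.3e-06). Cd44, a receptor for hyaluronan, differed by 1.24 ± 0.288, 1.79 ± 0.306 and 2.91 ± 0.303 at the 3 ages (0.00718, 3.0e-04 and 1.2e-06). Itgb3 was higher at 3 weeks (1.47 ± 0.313, 0.00274) and Itgb6 lower at 10 weeks (−1.61 ± 0.341, 0.0023). Has3, Ecm2 and Cd36, lower at 3 weeks, were lost without WT replicate 1 (0.134, 0.151 and 0.0531) and without other libraries. Has3 and Ecm2 passed as lower at 10 weeks too, and Cd36 at 6 weeks.

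Markers of other cell types were read beside these results. The 10 fibroblast markers, none at 0 in any group, summed to 453 to 541 CPM in WT and 352 to 413 CPM in KO at 3 weeks, to 473 to 486 against 373 to 461 CPM at 6 weeks, and to 404 to 456 against 396 to 479 CPM at 10 weeks. The KO sums thus lay below the WT sums at 3 and 6 weeks, and their relation to the matrix members was not tested. Of the 10, 0, 2 and 1 were higher in KO and 5, 3 and 4 lower. Of all genes, 8.65%, 11.0% and 14.6% were higher and 6.68%, 12.8% and 14.7% lower at these ages. In either direction this was 15.3%, 23.8% and 29.3%, the share to set beside each marker list below. Smooth muscle and pericyte markers, 10 with none at 0, summed to 1700 to 1790 against 1130 to 1370 CPM, 1180 to 1280 against 851 to 1040 CPM, and 1290 to 1680 against 754 to 965 CPM, with KO under WT at each age. Of these 10, 2, 2 and 3 were higher in KO and 3, 3 and 4 lower. Among the lower ones, Acta2 differed by −0.94 ± 0.232 at 3 weeks and −2.23 ± 0.242 at 6 weeks (adjusted p = 0.0119 and 5.7e-06). At those ages Abcc9 differed by −0.47 ± 0.123 and −0.45 ± 0.123 (0.013 and 0.0098). Kcnj8 differed by −0.45 ± 0.14 and −0.40 ± 0.139 (0.0339 and 0.0403). Cspg4, a pericyte proteoglycan, was higher by 1.56 ± 0.232, 1.29 ± 0.230 and 2.32 ± 0.238 (adjusted p = 2.3e-04, 5.7e-04 and 1.7e-06). Cnn1, a calponin of smooth muscle, was higher by 5.04 ± 1.41, 5.80 ± 1.44 and 5.23 ± 1.41 (0.0303, 0.0109 and 0.0142), calls that were lost with limma voom (0.245, 0.0501 and 0.111). The 3-week call of Cnn1 was also lost without KO replicate 2 (log2 2.26, adjusted p = 0.215). It was lost too without WT replicate 1, 2 or 3 (0.11, 0.0911 and 0.0791). Pdgfrb, a receptor of pericytes and fibroblasts, was higher by 0.36 ± 0.127 at 10 weeks (0.0373), a call lost in 4 of 6 fits without 1 library. Macrophage markers, also 10 with none at 0, summed to 365 to 442 against 342 to 367, 347 to 438 against 273 to 329, and 272 to 317 against 208 to 259 CPM. Of these, 0, 1 and 0 were higher and 1, 2 and 4 lower. In either direction the macrophage counts were near the share of all genes, so they are not read as a result.

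Scx, a transcription factor of tendon and of valve and fibroblast lineages, was higher in KO at each age, by 0.99 ± 0.184, 1.18 ± 0.177 and 1.80 ± 0.185 (adjusted p = 8.1e-04, 4.3e-05 and 2.7e-07). The 5 tendon markers summed to 6.85 to 13.9 CPM in WT and 12.9 to 32.3 CPM in KO. Of these 5, 2 were tested and Scx was the one that passed. The 7 cartilage markers, of which up to 4 were at 0 in a group, summed to 2.14 to 3.57 CPM in WT and 2.81 to 6.29 CPM in KO; 1 was tested. Epicardial and mesothelial markers, 7 with none at 0, summed to 11.7 to 19.9 CPM in WT and 22.5 to 44.6 in KO at 3 weeks. At 10 weeks they summed to 8.48 to 16.0 against 28.9 to 74.0 CPM, and 5 of 7 were higher (14.6% of all genes). At 6 weeks their groups overlapped, at 10.2 to 35.4 against 19.6 to 31.7 CPM. Endothelial markers, 9 with none at 0, summed to 944 to 1230 CPM in WT and 768 to 1100 CPM in KO, Schwann cell markers to 4.30 to 9.13 and 1.81 to 5.55 CPM, and red cell markers to 499 to 3910 and 534 to 2100 CPM. The part of any of these cell types, and of depth or mitochondrial share, in the matrix values was not tested.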

How the data were processed

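Left ventricular RNA of 18 libraries was examined, 3 in each of 6 groups. The authors deposited raw whole-number counts per gene, without normalization; per the submitters' processing notes, Trimmomatic 0.36, STAR 2.5.2b, featureCounts and Subread 1.5.2 were used with GRCm38. No source used here states the strand setting or how multiply mapped reads were treated. Gene symbols came from GENCODE M21, which matched 49056 of the 49315 identifiers.

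Counts were fitted with edgeR 4.0.16 in R 4.3.3: filterByExpr (minimum count 10, minimum total 15), TMM scaling, a robust quasi-likelihood model of 6 group means and F-tests of 12 contrasts, with Benjamini-Hochberg adjustment over 15778 genes and a threshold of 0.05. Sharing 1 fit pools the spread over 18 libraries. The common dispersion was 0.0252. SE is the log2 difference divided by the square root of F. CPM are TMM-scaled, and levels per length divide CPM by the exon length in kb. Totals of 14980968 to 23001047 counts leave genes with few reads imprecise, and intervals cover counting and replicate spread only. The members and lists were chosen with earlier results of these data known. Named were the members, by role, and up to 3 genes per direction of each further list with the smallest adjusted p. Scripts were tested on simulated data.

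Alternatives were RLE scaling, DESeq2 1.42.0, limma 3.58.1 with voom, other count filters, a replicate block, only the groups compared, each library left out and, added after seeing the data, leaving out 3 libraries. Replicate numbers do not pair the samples: over 45 same-number pairs, correlations of deviations from the group means ran from −0.22 to 0.112, and 2 were over 0.1.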

Additional observations from a re-analysis of the deposited data

Results flagged for a closer look

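For 14 values the genotype effect, the log2 difference between KO and WT, differed between ages by the test of that difference (edgeR quasi-likelihood, adjusted over all genes). From 3 to 6 weeks the effect grew by 1.65 for Mfap4, 1.12 for Mgp, 1.10 for Lum, 0.98 for Bgn and 0.81 for Dcn (adjusted p = 0.00506, 0.00506, 0.0187, 0.0188 and 0.0177). From 6 to 10 weeks it grew by 1.02 for Mfap5 and changed by −1.04 for Lum and −0.81 for Fbln1 (adjusted p = 0.0442, 0.0118 and 0.0435). From 3 to 10 weeks it grew by 2.29 for Thbs4, 1.42 for Mfap4, 1.37 for Mfap5 and 0.83 for Mgp and changed by −0.94 for Thbs3 and −0.87 for Fbln1 (adjusted p = 0.0335, 0.00511, 0.00784, 0.0123, 0.0334 and 0.0303). The comparisons of 6 and of 10 weeks with 3 weeks share the 3-week libraries. Mfap4, Mgp and Mfap5 against 3 weeks as printed here, and Lum from 6 to 10 weeks, passed in each fit that left out 1 library; the others did not. No cause was tested.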

How the results depend on the processing

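No called member value reversed under any alternative run. Values that did not pass changed sign in some. For Eln, KO against WT at 6 weeks, the log2 difference was −0.062 with limma voom, −0.58 without the 3 libraries richest in atrial transcripts, and −0.58 to 0.42 without 1 library. For Eln, KO against WT at 10 weeks, it was −0.082 with limma voom, −0.0041 with a replicate block, −0.46 without those 3 libraries, and −0.45 to 0.25 without 1 library. Without 1 library it ran from −0.084 to 0.13 for Fbln1, KO against WT at 3 weeks, from −0.19 to 0.11 for Fbln1, KO against WT at 6 weeks, from −0.89 to 0.041 for Aspn, KO against WT at 10 weeks, and from −0.79 to 0.19 for Omd, KO against WT at 10 weeks. Of 142 calls of members over the 12 contrasts, RLE scaling lost 2, DESeq2 1, limma voom 5, the filter of 10 counts in 3 libraries 1 and no filter 0; only the libraries compared lost 22, and leaving out the 3 libraries richest in atrial transcripts (chosen after seeing the data) lost 20 of 112. With no filter the count of members called was 22 for KO against WT at 3 weeks, 12, 7 and 11 for the change of that effect from 3 to 6, 6 to 10 and 3 to 10 weeks, 16 and 10 in WT from 3 to 6 and 6 to 10 weeks, and 22 and 16 in KO over the same intervals. With only the libraries compared it was 14 and 12 in WT from 3 to 6 and 6 to 10 weeks, and 5 and 11 in KO from 6 to 10 and 3 to 10 weeks; without the 3 libraries it was 3 for the effect from 3 to 6 weeks. Leaving out 1 library gave 10 to 18, 20 to 24 and 16 to 22 for KO against WT at 3, 6 and 10 weeks, 3 to 8, 1 to 3 and 3 to 9 for the change of effect, 4 to 9, 2 to 6 and 11 to 16 in WT, and 9 to 12, 5 to 8 and 13 to 17 in KO (each in the order 3 to 6, 6 to 10 and 3 to 10 weeks). The cause of these shifts was not tested. The share of all genes called in the alternative fits is not given, so these counts are not read as a result about the members. With a replicate block, although the numbers do not pair the samples, 13, 25 and 22 members were called at 3, 6 and 10 weeks, 5, 2 and 6 for the change of effect, 9, 5 and 16 in WT and 10, 9 and 19 in KO; the calls lost under the block were Fn1 at 3 weeks (0.0571), Fbln1 from 6 to 10 weeks (0.0613), Mfap2 in WT from 6 to 10 weeks (0.0544), Eln in WT from 3 to 10 weeks (0.0556) and Fbn1 in KO from 6 to 10 weeks (0.0508). Few reads limit Omd, Cthrc1, Tnc and Comp.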
